A study of Mus musculus with 2 samples.

Results

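The miR-125 family of the mouse is made from 3 hairpin loci, Mir125a, Mir125b-1 and Mir125b-2. They were taken by gene ID from tables of 1973 gene rows, and all 3 had a row in both tables. MicroRNA sequencing of RNA under 30 nt was done on midbrain of B6NCrl mouse embryos at embryonic day 13.5, male and female embryos pooled, healthy and with no treatment or genetic change named. The series holds 1 group of 2 biological replicates with 1 library each, and both samples carry the same donor record. No other tissue, age or treatment is part of it, so the data show how much of each locus the tissue held and how far the 2 libraries matched, and no change over development.

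The family is the vertebrate counterpart of lin-4 of the nematode, the microRNA that times larval cell fates. In mammals its best known targets include Lin28, an inhibitor of let-7 processing, and it is a familiar microRNA of neural progenitors and neurons. Each locus lies in a cluster with a miR-99/100 hairpin and a let-7 hairpin. Dicer cuts a hairpin into a 5p arm and a 3p arm, and bases 2 to 8 of an arm, its seed, choose most targets.

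The 5p arms define the family, so they are shown first, with the seed in capitals (sequences from RefSeq, build GRCm38.p6, 5′ to 3′). Mir125a lies on the plus strand at chr17:17830812-17830879, Mir125b-1 on the plus strand at chr9:41581926-41582002 and Mir125b-2 on the plus strand at chr16:77646273-77646343. The fourth line is the 5p arm of Mir351, an X-linked locus outside the family with the same seed.
miR-125a-5p: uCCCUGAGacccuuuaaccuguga
miR-125b-5p, from Mir125b-1: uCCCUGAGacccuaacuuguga
miR-125b-5p, from Mir125b-2: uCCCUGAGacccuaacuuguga
miR-351-5p: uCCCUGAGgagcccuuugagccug

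All 3 loci share 1 seed, and Mir125b-1 and Mir125b-2 encode the same 5p arm over all 22 bases. The 24-base miR-125a-5p shares its first 13 and its last 5 bases with miR-125b-5p. The 24-base miR-351-5p shares an unbroken start of 8 bases with either, and differs from miR-125a-5p at 14 of 24 positions. The 3p arms tell the loci apart, and each has a seed of its own.
miR-125a-3p: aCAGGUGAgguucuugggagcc
miR-125b-1-3p: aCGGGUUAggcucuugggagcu
miR-125b-2-3p: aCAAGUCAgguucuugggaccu

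These arms are all 22 bases long. The 3p arms of Mir125b-1 and Mir125b-2 differ at 5 positions, and each differs from that of Mir125a at 4. The 2 hairpins with a RefSeq entry are given with both arms in capitals, because 1 count in the tables covers everything between the ends of a hairpin.
Mir125a: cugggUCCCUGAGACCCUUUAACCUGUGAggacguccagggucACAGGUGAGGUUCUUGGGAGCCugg
Mir125b-1: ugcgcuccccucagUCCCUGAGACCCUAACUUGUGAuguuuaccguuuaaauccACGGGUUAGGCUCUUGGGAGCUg

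What a locus count can hold follows from these sequences. Reads that map to several places stand in a summary row of their own and in no locus count. A read of exactly miR-125b-5p fits Mir125b-1 and Mir125b-2 equally. The longest exact run that the Mir125b-1 and Mir125b-2 hairpins share is 24 nt, 2 bases longer than the arm. Mir125a shares at most 14 nt with any other annotated microRNA hairpin, less than either of its arms. The values of Mir125b-1 and Mir125b-2 are therefore not the level of mature miR-125b-5p, which the tables do not give. Of 1738 annotated mature arms in the RefSeq table, 118 (6.79%) have the same sequence at another place. Multimapping reads of all loci together came to 3827354 in replicate 1 and 2590773 in replicate 2, and their sources were not analysed here.

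Replicate 1 held 5093743 reads on the strand of a gene and replicate 2 held 2935841. Levels are given in CPM, a locus' count scaled to a fixed total of these reads, and a count of 0 allows up to 0.589 and 1.02 CPM, from 3 counts. These limits and all intervals cover counting error only, since the tables carry no molecular identifiers. Neural marker loci summed to 48050 and 46722 CPM in replicates 1 and 2, with 9 of the 10 listed in the tables and none at 0. The sum came largely from Mir149 (18501 and 19218 CPM), Mir135b (11427 and 10751 CPM), Mir137 and Mir92b. Mir9-3 held 401 and 353 CPM. The other listed neural loci with a row were far lower, with Mir9-2 at 1.77 and 2.38 CPM and Mir124a-1 at 2.36 and 2.38 CPM. Mir124a-2 held 9.42 and 9.20 CPM, and Mir124a-3 held 1.57 and 1.70 CPM. Multimapping reads belong to no locus count, so these values need not be the levels of the mature microRNAs. Over all 10 marker lists, 32 of 34 loci had a row, none was at 0 in both libraries, and 8 lists had a higher sum in replicate 2. Among these, the multiciliated list summed to 860 and 2171 CPM, the endocrine list of 1 locus to 523 and 1365 CPM, and the endothelial list of 1 locus to 16256 and 21170 CPM. The erythroid list summed to 93.4 and 86.9 CPM and the leukocyte list to 319 and 349 CPM. Their part in the differences between the libraries given below was not tested. In a bulk sample, fewer cells of a type and less RNA per cell cannot be told apart.

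Mir125a, the only member with a 5p arm of its own, had the highest count of the family. It held 21159 counts in replicate 1 and 9852 in replicate 2, which is 4154 and 3356 CPM, a mean of 3755 ± 564 CPM (SD, n = 2). Among all 1973 loci, of which 1254 had no same-strand count in either library, it ranked 43rd in replicate 1 and 50th in replicate 2. The libraries lay further apart for this locus than for the other 2 members.

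Mir125b-1 held 11706 and 7048 counts, or 2298 CPM in replicate 1 and 2401 CPM in replicate 2, a mean of 2349 ± 72.5 CPM (SD, n = 2). It ranked 64th and 63rd. Mir125b-2 held 10106 and 5836 counts, or 1984 and 1988 CPM, a mean of 1986 ± 2.72 CPM (SD, n = 2), and ranked 69th in both libraries. An SD this small from 2 values is no measure of precision. No read was counted on the opposite strand of any of the 3 loci in either library.

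**Figure D1:**
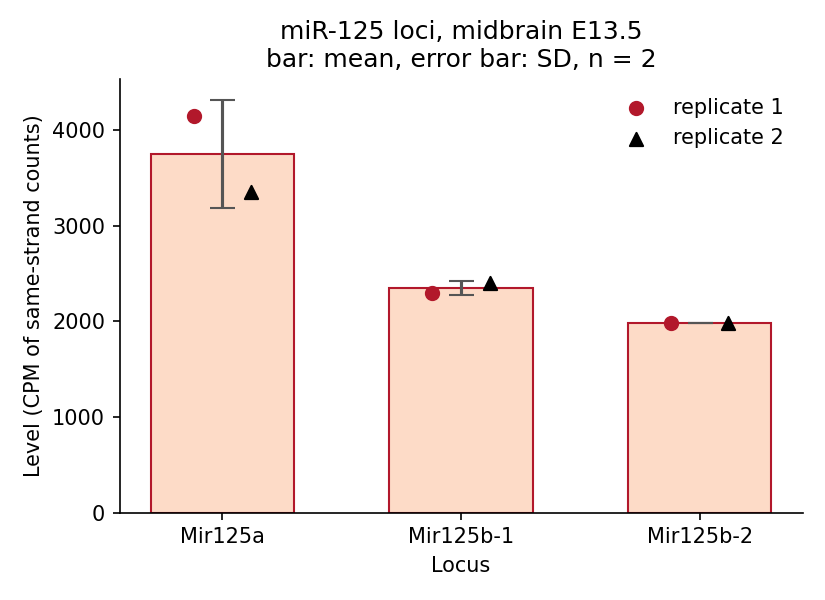
Level of each miR-125 locus (vertical axis, CPM of same-strand counts, from 0) by locus (horizontal axis), with a point for each replicate, a bar for the mean and an error bar for the SD (n = 2). Mir125a lies highest in both replicates, at 4154 and 3356 CPM, and Mir125b-2 lowest, at 1984 and 1988 CPM.

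The order Mir125a, Mir125b-1, Mir125b-2 held in both libraries, and the values of neighbours in this order did not overlap. Mir125a was 1.81 times Mir125b-1 in replicate 1 and 1.40 times in replicate 2. Mir125b-1 was 1.16 and 1.21 times Mir125b-2. Per length of the locus (68, 77 and 71 bases) the order was the same. Mir125a stood at 6109 and 4935 CPM per 100 bases, Mir125b-1 at 2985 and 3118, and Mir125b-2 at 2794 and 2800. With 2 libraries the gap between Mir125b-1 and Mir125b-2, the smaller of the 2 gaps, is larger than the spread seen but has no test. Since reads confined to the shared run are in the counts of neither Mir125b locus, the order of the loci is not an order of the mature microRNAs.

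Together the 3 loci held 0.844% of all counts in replicate 1 (0.836 to 0.852, 95% Clopper-Pearson limits) and 0.774% in replicate 2 (0.764 to 0.785, same limits). Within this sum Mir125a made up 49.2% in replicate 1 (48.8 to 49.7) and 43.3% in replicate 2 (42.7 to 44.0). Mir125b-1 made up 27.2% and 31.0%, and Mir125b-2 made up 23.5% and 25.7%. The make-up of the family therefore differed between the libraries beyond counting error, with a smaller part for Mir125a in replicate 2. Such a difference is not particular to the family. The test between libraries given below called 87.9% of the loci of at least 1000 CPM.

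**Figure D2:**
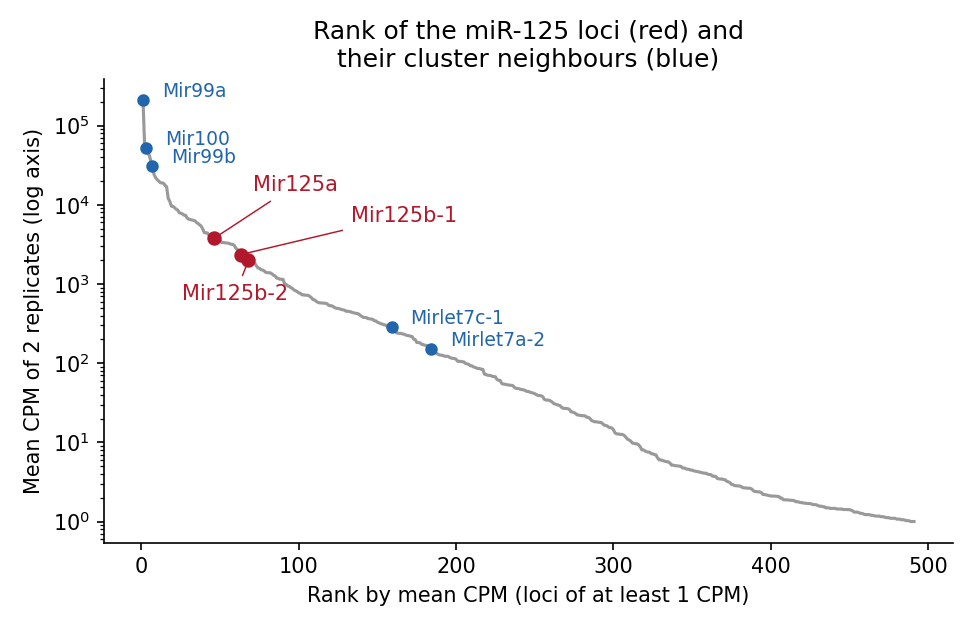
Mean CPM (vertical log axis, mean of 2 replicates) of all loci of at least 1 CPM by their rank (horizontal axis), shown as a grey line, with the miR-125 loci in red and their cluster neighbours with a row in blue. The miR-125 loci lie at ranks 46, 63 and 68, between the miR-99/100 loci at ranks 1, 3 and 7 and Mirlet7c-1 and Mirlet7a-2 at ranks 159 and 184. Mirlet7e, the neighbour with no row, is not shown. Its counts, read from the opposite strand of Gm25927 as given below, had a mean of 5006 CPM.

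The loci most like each member in level were found by the distance of their log2(CPM + 0.5) values over the 2 libraries, among loci with at least 10 counts. Mir324 (4093 and 3278 CPM) and Mir431 (4082 and 3446 CPM) lay closest to Mir125a, at distances of 0.040 and 0.046. Mir16-1 (2249 and 2337 CPM, distance 0.050) and Mir379 (2294 and 2197 CPM, distance 0.13) lay closest to Mir125b-1. Mirlet7b (1835 and 1890 CPM, distance 0.13) and Mir101b (2037 and 1799 CPM, distance 0.15) lay closest to Mir125b-2. With 2 libraries these distances describe levels only.

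Each member is the last hairpin of its cluster, on the plus strand with its partners (the clusters lie on mm10). In the compact cluster on chromosome 17, Mir125a starts 624 bp after Mir99b, with Mirlet7e between them. The cluster lies in Spaca6, a protein-coding gene named for the sperm acrosome, and Mir125a overlaps an exon of a Spaca6 transcript and introns of others. On chromosome 9, Mir125b-1 starts 50.5 kb after Mir100, in an intron of the noncoding 3110039I08Rik and in an exon of the sense-intronic transcript Gm28119. On chromosome 16, Mir125b-2 starts 47.3 kb after Mir99a, in an intron of the noncoding Mir99ahg and in an exon of the transcript C130023A14Rik. The ID of Mir125a in the tables (ENSMUSG00000065479.1) has another version than in the annotation used for its place (ENSMUSG00000065479.2), so the interval counted may differ from the one printed, whereas ENSMUSG00000093354.1 (Mir125b-1) and ENSMUSG00000065472.1 (Mir125b-2) have the same version in both.

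The miR-99/100 partner exceeded the miR-125 locus in all 3 clusters, by very different factors. Mir99b stood at 29483 and 32347 CPM, 7.10 times Mir125a in replicate 1 and 9.64 times in replicate 2. Mir100 stood at 50553 and 53960 CPM, 22 and 22.5 times Mir125b-1. Mir99a stood at 205408 and 213570 CPM, 104 and 107 times Mir125b-2. The factor was thus smallest in the compact cluster and largest on chromosome 16. Reads confined to the 24-nt run that the Mir125b loci share are in neither of their counts, whereas Mir125a shares at most 14 nt. These factors are therefore not ratios of the mature microRNAs, and the part of such reads in their order was not tested.

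The 5p arms of the latter 2 partners differ from each other at 1 position of 22, shown here beside the identical 5p arms of the Mir125b loci (seed in capitals).
miR-99a-5p: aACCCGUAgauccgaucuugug
miR-100-5p: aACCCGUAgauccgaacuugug

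The let-7 partners stood below the miR-125 locus in the 2 long clusters. Mirlet7a-2 held 155 and 144 CPM, and Mir125b-1 exceeded it 14.8 and 16.7 times. Mirlet7c-1 held 291 and 285 CPM, and Mir125b-2 exceeded it 6.82 and 6.98 times. The hairpin of Mirlet7a-2 shares a run of 23 nt with Mirlet7a-1, and that of Mirlet7c-1 a run of 23 nt with Mirlet7c-2. Reads confined to these runs, or to the run shared by the Mir125b loci, are in no locus count. The factors are therefore not ratios of the mature microRNAs. Mirlet7e had no row under its ID. Its place is covered by Gm25927, a microRNA model on the opposite strand (chr17:17830343-17830459), which held 0 counts on its own strand and 25715 and 14571 on the other. Read as counts at Mirlet7e, a choice made after seeing the data, these are 5048 and 4963 CPM, 1.22 and 1.48 times Mir125a. Locus lengths within a cluster differ by factors of 0.915 to 1.37. Per length, taking the 93 bases of Mirlet7e, its counts came to 0.889 and 1.08 times Mir125a. The interval counted was the 117 bases of Gm25927, for which no ratio per length was taken. The order of Mirlet7e and Mir125a is thus not resolved per length. For the other pairs the order is the same per length.

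**Figure D3:**
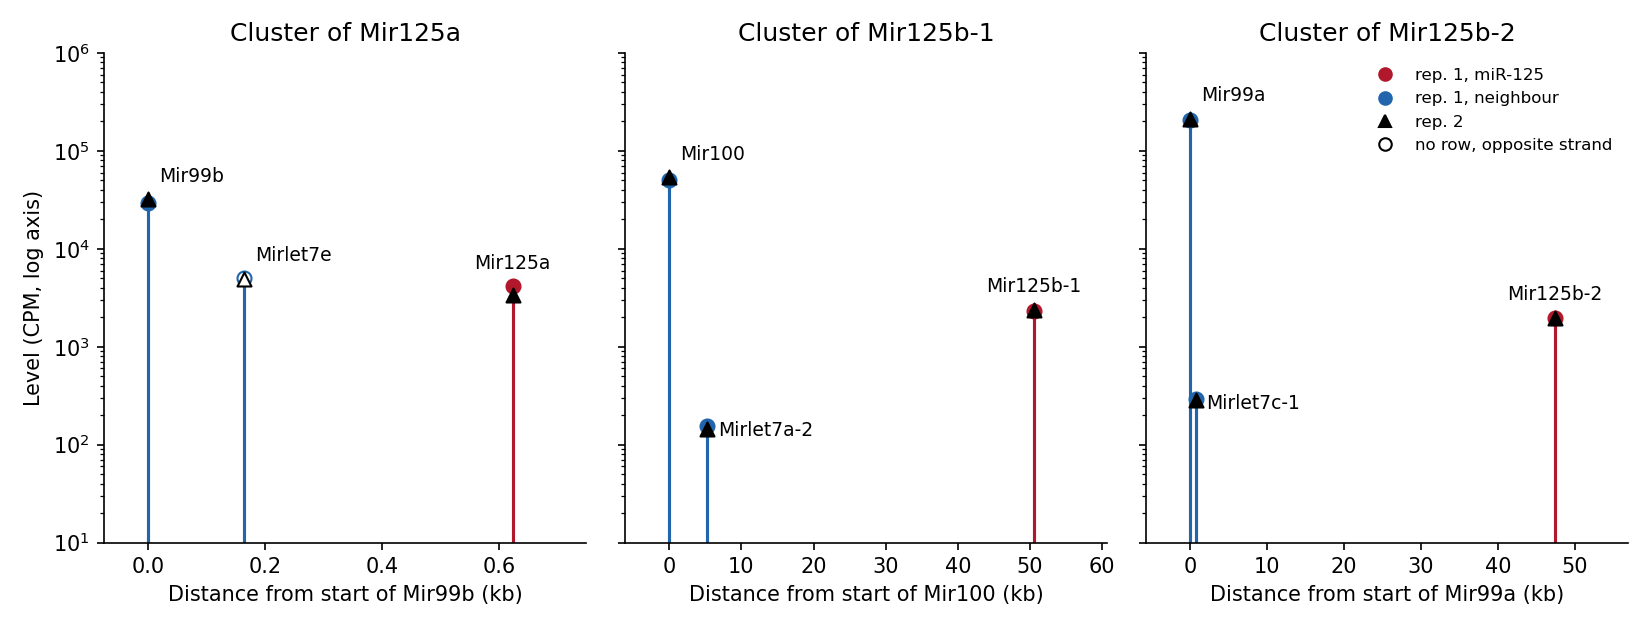
Level (vertical log axis, CPM) of each hairpin of the 3 clusters by its distance from the start of the first hairpin (horizontal axis, kb; the scale differs between panels), with circles for replicate 1, triangles for replicate 2 and open symbols for Mirlet7e, read from the opposite strand of Gm25927. The miR-125 loci (red) lie below the miR-99/100 locus of their cluster in all 3 panels, and above the let-7 locus in the clusters of Mir125b-1 and Mir125b-2.

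The ratio within a cluster held steadier between the libraries for the Mir125b loci than for Mir125a. The log2 ratio of Mir125b-1 to Mir100 was -4.46 in replicate 1 and -4.49 in replicate 2. That of Mir125b-2 to Mir99a was -6.69 and -6.75. That of Mir125a to Mir99b was -2.83 and -3.27, a difference of 0.44. Against Mirlet7e it was -0.28 and -0.56. The log2 ratio of Mir125b-1 to Mirlet7a-2 was 3.89 and 4.06, less steady than that to Mir100. That of Mir125b-2 to Mirlet7c-1 was 2.77 and 2.80. The ratio of Mir125a to both of its close neighbours was thus lower in replicate 2, and with 2 libraries no test of this difference between clusters was possible.

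Over the clusters, loci with a longer shared run had lower levels at a split of 22 nt. The 5 loci whose longest exact run shared with another hairpin was under 22 nt had means from 3755 CPM (Mir125a) to 209489 CPM (Mir99a). The 4 loci with a run of 22 nt or more, which were Mir125b-1, Mir125b-2, Mirlet7c-1 and Mirlet7a-2, had means from 149 to 2349 CPM, and the 2 ranges did not overlap. Among the other let-7 loci, 5 with a shorter run spanned 1862 to 45544 CPM and 3 with a run of 22 nt or more spanned 122 to 1175 CPM. The split at 22 nt was chosen after seeing the values, these loci share arms and libraries, and the part of unplaced reads in the levels was not tested.

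**Figure D4:**
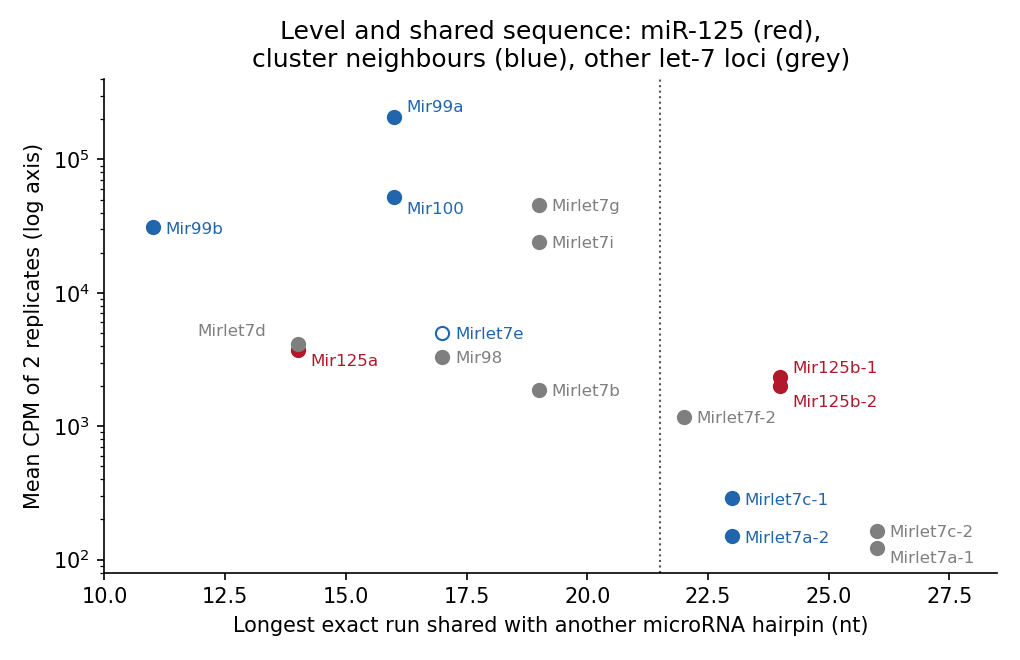
Mean CPM (vertical log axis, mean of 2 replicates) by the longest exact run that a hairpin shares with another annotated microRNA hairpin (horizontal axis, nt), for the miR-125 loci (red), their cluster neighbours (blue; the open symbol is Mirlet7e, read from the opposite strand) and the other let-7 loci (grey). Right of the dotted line at 22 nt no locus exceeds 2349 CPM, and Mir125a lies left of it at 14 nt and 3755 CPM. Mirlet7b also lies left of the line, at 19 nt and 1862 CPM, below both Mir125b loci.

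Of the loci outside the family with the seed of miR-125, Mir351, which lies in a microRNA cluster of the X chromosome (chrX:53053255-53053353), held 841 CPM in replicate 1 and 707 CPM in replicate 2, a mean of 774 ± 94.2 CPM (SD, n = 2). This is below each member in each library. Mir6367 and Mir6394 had no read in either library, which allows up to 0.589 and 1.02 CPM. Of the loci carrying this seed, the 3 members and Mir351 thus had counts, and the tables do not tell the arm of a read.

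Between the libraries, all 3 members differed by the two-sided exact conditional binomial test on counts given library sizes scaled by TMM (trimmed mean of M values), adjusted by Benjamini-Hochberg over 466 loci with at least 10 counts. Mir125a was 1.18-fold higher in replicate 1 (95% exact interval 1.15 to 1.21, log2 ratio 0.24, adjusted p = 2.09e-42, exact conditional binomial test). Mir125b-1 was 1.09-fold higher in replicate 2 (log2 ratio -0.13, adjusted p = 1.61e-08, same exact test). Mir125b-2 was 1.05-fold higher in replicate 2 (log2 ratio -0.070, adjusted p = 0.011, same exact test). The last call ended with total counts only (log2 ratio -0.0028, adjusted p = 0.991 in the exact test) and with no filter on low counts (-0.037, adjusted p = 0.317), so Mir125b-2 has no settled difference.

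These calls say little about the members. The test compares 2 libraries of 1 group and covers counting error only, and it called 38.0% of all tested loci. Calls higher in replicate 1 were 18.7% of those tested, and calls in the other direction 19.3%. With total counts only, 112 of 181 called loci were higher in replicate 1, against 87 of 177 with TMM scaling. Of the loci of at least 1000 CPM, to which the members belong, it called 87.9%. With a fold of at least 1.5 required as well, 7.30% of tested loci and none of the 3 members were called. The absolute log2 ratio was larger than that of Mir125a at 27 of the 91 loci of at least 1000 CPM, larger than that of Mir125b-1 at 51 and larger than that of Mir125b-2 at 74. The median log2 ratio was -0.070 over the 3 members and -0.0041 over all tested loci. The common biological coefficient of variation between the libraries was 0.157.

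**Figure D5:**
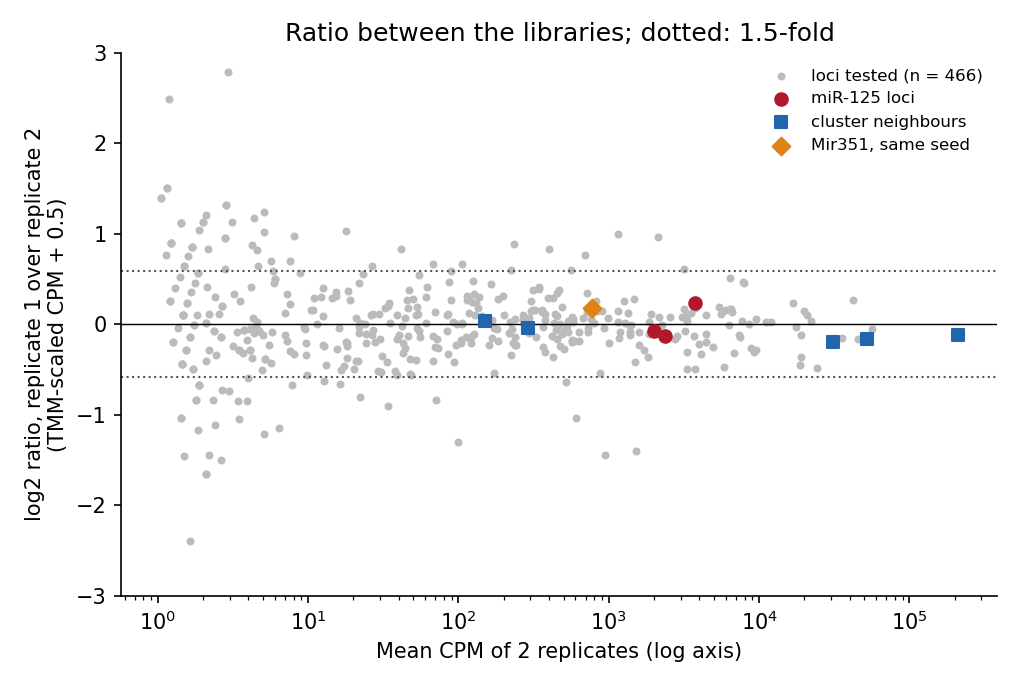
Log2 ratio of replicate 1 to replicate 2 (vertical axis, TMM-scaled CPM + 0.5) by mean CPM (horizontal log axis) for the 466 loci tested (grey), the miR-125 loci (red), their cluster neighbours with a row (blue) and Mir351 (orange), with dotted lines at 1.5-fold. All 3 miR-125 loci lie within the dotted lines, Mir125a above 0 at 0.24 and both Mir125b loci below 0.

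The other hairpins of the clusters and their let-7 relatives gave the following counts in the same test, on lists set with earlier results of these data known. Of 5 cluster neighbours with a row, 3 were higher in replicate 2, namely Mir99b (log2 ratio -0.20), Mir100 (-0.16) and Mir99a (-0.12), and Mirlet7a-2 (0.041) and Mirlet7c-1 (-0.036, and 0.031 with total counts only) did not pass. The median over the 5 was -0.12. Of 8 other let-7 loci with a row, of 9 listed, 6 were higher in replicate 2 and 2 in replicate 1, with a median of -0.16. Mirlet7a-1 (0.25) and Mirlet7c-2 (0.45), named after their values were seen, were those higher in replicate 1. By the same exact test the call of Mirlet7a-1 ended with the deeper library thinned (log2 ratio 0.23, adjusted p = 0.0893), and that of Mirlet7b ended when scaled by total counts (-0.043, adjusted p = 0.168). Mir351 was higher in replicate 1 (log2 ratio 0.18). None of these reached 1.5-fold. Over all tested loci the same test called 38.0%, with 18.7% higher in replicate 1 and 19.3% higher in replicate 2. It called 87.9% of the loci of at least 1000 CPM, so the counts per list say little about the lists.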

How the data were processed

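MicroRNA sequencing of 2 midbrain libraries was analysed from the deposited raw counts per gene, with assembly mm10 and annotation M4 per the notes deposited with the samples. For the aligner and for trimming, nothing is given in the sources used here. A table has 3 count columns. The first equals the sum of the others in 3946 of 3946 gene rows of both tables, and they were read as unstranded, same-strand and opposite-strand counts, an inference from the values. Unmapped reads (16.1% and 15.7%), multimapping reads (34.4% and 37.7%) and reads with no feature (3.79% and 3.80%) belong to no gene row and were kept from library sizes and from tests.

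CPM values are same-strand counts divided by their total over gene rows. Names and places came from GENCODE M21 on the same assembly, to which 1894 of 1973 IDs matched without version, and sequences from RefSeq (GRCm38.p6). Shared runs were sought over annotated microRNA hairpins on both strands, leaving out overlapping models, and no genome was searched. With 1 group no contrast could be fitted. edgeR 4.0.16 (R 4.3.3) gave TMM factors and the common dispersion of an intercept-only design, and scipy 1.17.1 (Python 3.11.15) the exact conditional binomial test per locus, adjusted by Benjamini-Hochberg at 0.05. The test was tried on simulated counts with counting error only, which leaves out any other variation between libraries. Log2 ratios add 0.5 CPM.

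The text names the 3 members, their cluster neighbours, loci with the same seed and the 2 loci nearest to each member in level, plus single loci of the let-7 and marker lists. The members and lists were chosen with earlier results of these data known. Alternatives were DESeq2 1.42.0 size factors, other count minimums, total counts only, unstranded counts, thinning of the deeper library, a required fold, other denominators, locus length, another pseudocount and each replicate left out. Reading Mirlet7e from the opposite strand was added after seeing the data. Whether the pooled embryos of the replicates were independent is not given, so p-values measure only the spread of counting between these libraries.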

Additional observations from a re-analysis of the deposited data

Results flagged for a closer look

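Counts on the opposite strand of Gm25927 lie outside the same-strand counts that gave the levels and tests, and were used only for Mirlet7e and within unstranded counts. They had a mean of 5006 CPM (5048 and 4963 CPM), far above the limits of 0.589 and 1.02 CPM that a count of 0 allows. Their place is that of Mirlet7e, the middle hairpin of the Mir125a cluster, and they were 21.6% and 22.9% of all opposite-strand counts in gene rows of the tables. Gm25927 held no count on its own strand.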

How the results depend on the processing

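Mir125a kept its direction and passed the test under 6 of 6 scaling, filter, strand and depth alternatives (log2 ratio 0.23 to 0.31), as did Mir125b-1 (-0.13 to -0.06), and Mir125b-2 did so under 4 of 6, ending when scaled by total counts (-0.0028) and without the filter (-0.037). Requiring 1.5-fold ended the calls of Mir125a (0.24), Mir125b-1 (-0.13) and Mir125b-2 (-0.070), and left 0 calls among the members, the cluster neighbours, the other let-7 loci and the seed relatives, by its own construction. With multimapping reads in the denominator the levels of Mir125a, Mir125b-1 and Mir125b-2 were 2077, 1294 and 1094 CPM, and the share of the 3 loci was 0.447%. Without Mir99a in the denominator they were 4747, 2972 and 2512 CPM, and the share 1.02%. Per 100 bases of locus length the levels were 5522, 3051 and 2797 CPM. With unstranded counts Mir125b-2 stood at 1942 CPM. With a pseudocount of 5 CPM the log2 ratio of Mir125b-1 to Mirlet7a-2 was 3.93 in place of 3.97. Per length, ratios to the let-7 neighbours shifted by the length factors. Leaving out a replicate gave levels of 3356 to 4154 CPM for Mir125a, 2298 to 2401 CPM for Mir125b-1 and 1984 to 1988 CPM for Mir125b-2, and left no test between libraries. The ratio to Mirlet7e was not taken with unstranded counts. No paired analysis was possible because the series has 1 group.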
